A study of Mus musculus with 6 samples.

Results

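Regulators of G protein signaling (RGS proteins) were followed here through 9 genes, Rgs1, Rgs2, Rgs3, Rgs10, Rgs12, Rgs14, Rgs16, Rgs18 and Rgs19, of the 54532 gene identifiers in the expression tables. The 9 were picked by symbol, with the difference between the groups already known, so their fold changes are given below as descriptions and carry no test of their own. The cells were iBMDMs, mouse bone marrow-derived macrophages from wild-type animals made to grow without limit by retroviruses carrying v-raf and v-myc. Control cells had received a lentivirus with a control shRNA and PGAM5 knockdown (PGAM5 KD) cells a lentivirus with an shRNA against Pgam5, a phosphatase of the outer mitochondrial membrane. Both groups were treated with LPS, a bacterial ligand of Toll-like receptor 4, at 100 ng/ml for 4 hours, and each group had 3 RNA-seq libraries. No library without LPS was analysed here, so the values describe stimulated cells only and not the response to LPS. The labels do not say whether the 3 libraries of a group came from separate cultures, so the spread between them may be technical, and the effect of the Pgam5 shRNA cannot be told apart from other differences between the 2 cell lines.

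G protein-coupled receptors act by loading GTP onto a Gα subunit, which then parts from its Gβγ partner, and both pieces drive effector enzymes until the GTP is hydrolysed. RGS proteins bind the active Gα subunit and speed up that hydrolysis, so they shorten the signal. In leukocytes they limit responses to chemokines, prostaglandins, nucleotides and other receptor ligands. The R4 subfamily (Rgs1, Rgs2, Rgs3, Rgs16 and Rgs18 among the 9) consists mostly of small proteins with little beside the RGS domain, and Rgs2 is known for its preference for Gαq. The R12 subfamily holds the small protein Rgs10 and the larger Rgs12 and Rgs14, which also have Ras-binding and GoLoco domains. Rgs19, also called GAIP, belongs to the RZ subfamily.

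Pgam5 itself (ENSMUSG00000029500) was at 17.1, 12.97 and 13.4 FPKM in control libraries 1 to 3 and at 4.33, 5.75 and 4.53 FPKM in the PGAM5 KD libraries (FPKM, mapped fragments relative to exon length and library depth). The log2 fold change, PGAM5 KD minus control, was -1.40 ± 0.13 (SE, limma on log2(FPKM + 1), adjusted p = 0.000358), so the labels and the targeted gene matched. Pgam5 shares 1378 of its 2373 exon bases with the noncoding gene Gm26718, listed at a mean of 0 FPKM in both groups. How fragments from the shared bases were counted is not known. Depth recovered from the tables was 18163463 to 24388915 fragments per library. Of 8 macrophage markers 7 had a mean of at least 1 FPKM, with Mertk listed at 0, and their summed level was 2802 to 2894 FPKM in control and 2526 to 2544 FPKM in PGAM5 KD libraries. The summed neutrophil, fibroblast and lymphocyte markers reached at most 0.328, 0.0168 and 0.211 FPKM in any library, and 4 of 5, 3 of 5 and 4 of 6 of them were at 0 throughout. All 7 passed the adjusted threshold (limma), 4 higher in PGAM5 KD cells (Fcgr1 with a log2 fold change of 1.51, Adgre1 0.85, Itgam 0.68 and Cd14 0.56) and 3 lower (Csf1r -0.64, Lyz2 -0.40 and Cd68 -0.20), so the lower sum reflects the abundant Lyz2, Csf1r and Cd68. The part of these shifts in the values below was not tested. In RNA from whole cultures, fewer cells that express a gene and less RNA per cell cannot be told apart.

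Levels in control cells spanned more than 3 orders of magnitude. Rgs19 was the highest at 39.1 ± 2.22 FPKM (SD, n = 3), followed by Rgs10 at 14.9 ± 0.922 and Rgs2 at 13.7 ± 0.858, whose libraries overlapped. Rgs1 came next at 5.07 ± 0.427 FPKM, then Rgs14 at 2.31 ± 0.345, Rgs3 at 1.57 ± 0.0336 and Rgs16 at 0.677 ± 0.282. Rgs12 and Rgs18 were lowest at 0.0308 ± 0.0078 and 0.0271 ± 0.0469 FPKM, and did not differ beyond their spread. In PGAM5 KD cells Rgs19 at 39.7 ± 2.09 and Rgs10 at 13.02 ± 0.736 FPKM kept the first places, while Rgs2 at 3.55 ± 0.369 now overlapped with Rgs14 at 3.52 ± 0.361. Rgs1 at 2.48 ± 0.249 and Rgs3 at 1.52 ± 0.198 FPKM followed, and below them Rgs18 at 0.268 ± 0.200, Rgs16 at 0.185 ± 0.0847 and Rgs12 at 0.0579 ± 0.0294 overlapped with their neighbours in that order.

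**Figure D1:**
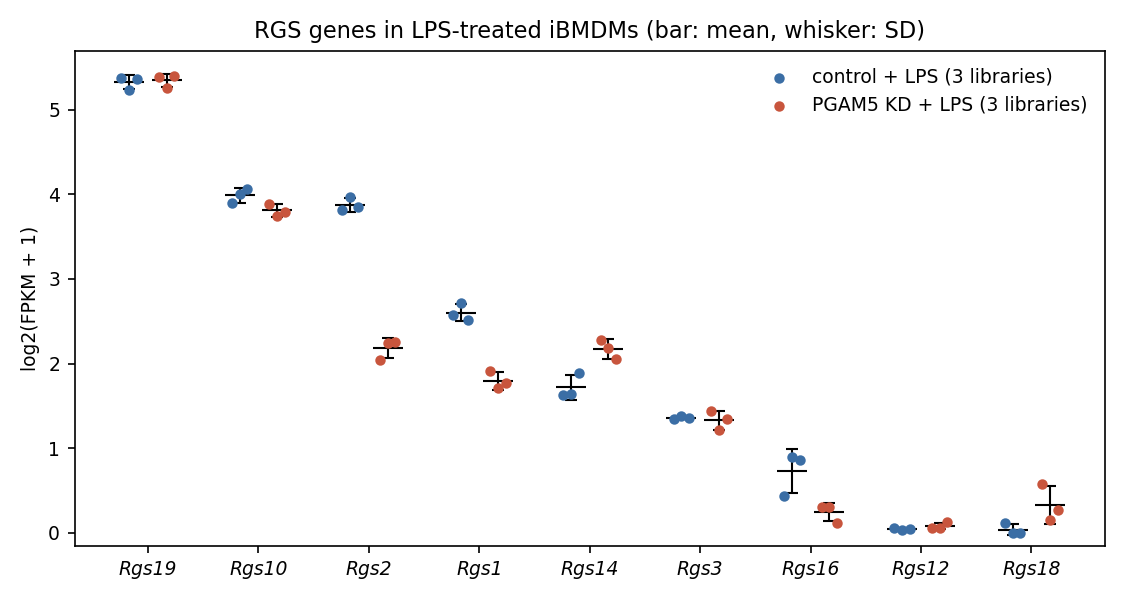
Expression of the 9 RGS genes, ordered by their mean in control cells, on log2(FPKM + 1). Each point is 1 library (3 control in blue, 3 PGAM5 KD in red), the bar is the mean and the whisker the SD. The groups are far apart for Rgs2 (13.1 to 14.7 against 3.12 to 3.79 FPKM), separate for Rgs1 and Rgs14, and overlapping for Rgs19 and Rgs3.

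Genes with a mean of at least 1 FPKM over the 6 libraries entered the fit, which left 10540 genes and 6 of the 9 members. Across all of them 31.7% passed an adjusted p of 0.05 (1771 higher and 1575 lower in PGAM5 KD cells). Of the 6 members 3 passed it, Rgs2 and Rgs1 lower (14.9% of all genes were lower) and Rgs14 higher (16.8% were higher). The split over all genes depended on the scaling, with 1088 higher and 2282 lower after rescaling every library to the same FPKM sum (TPM). Only Rgs2 also passed the study's fold threshold, a log2 fold change beyond 1 in size, as did 0.531% of all genes in the downward and 0.787% in the upward direction. Control and PGAM5 KD libraries were fully separate in 4 of the 6 members, 3 of them lower, whereas 47.1% of all genes tested were separate and 22.9% were separate and lower. The median log2 fold change of the 6 was -0.10, beside 0.01 over all genes. Because the members were chosen from this same contrast, nothing is read from these counts.

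**Figure D2:**
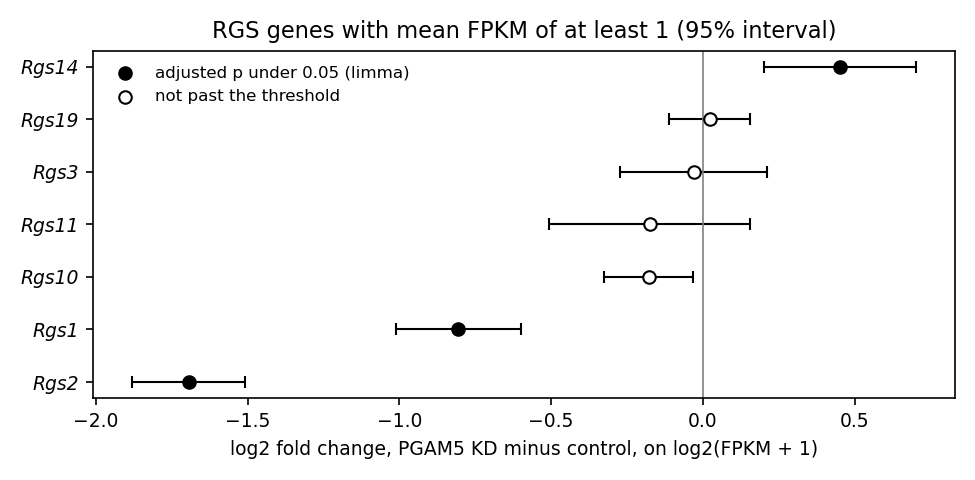
Log2 fold change, PGAM5 KD minus control on log2(FPKM + 1), with its 95% interval from limma, for the 7 RGS genes with a mean of at least 1 FPKM (6 members and Rgs11). Filled points passed an adjusted p of 0.05 over all 10540 genes. Rgs2 (-1.70) and Rgs1 (-0.81) lie below 0, Rgs14 (0.45) above it, and the intervals of Rgs3, Rgs11 and Rgs19 include 0.

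Rgs2 (ENSMUSG00000026360, chr1:143999338-144004161 in mm10, minus strand) showed the largest fold difference of the 6 members in the fit. Its transcript was at 13.1, 14.7 and 13.4 FPKM in the control libraries and at 3.12, 3.73 and 3.79 FPKM in the PGAM5 KD libraries. Every PGAM5 KD library was thus far below every control library, and the mean was 25.9% of the control mean, a 3.86-fold lower level. The log2 fold change was -1.70 ± 0.08 (SE, n = 3 against 3), with a 95% interval of -1.88 to -1.51. Between 246 and 1075 fragments per library lay behind these values. Over all alternatives tried the log2 fold change stayed between -1.97 and -1.63.

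The start of Rgs2 lies in a stretch rich in CG dinucleotides, which is shown because Rgs2 had the largest log2 fold change of the 6 members in the fit, and beside it that of Rgs19, the most abundant member, which differed little. Both are the bases of a RefSeq window (GRCm38.p6) that lie upstream of the annotated gene, with CG dinucleotides in capitals. They read 5′ to 3′ on the minus strand at chr1:144004162-144004399 (238 bases) and chr2:181693978-181694227 (250 bases). For Rgs2, 12 bases before the RefSeq start lie in annotated exons and were left out.
Rgs2: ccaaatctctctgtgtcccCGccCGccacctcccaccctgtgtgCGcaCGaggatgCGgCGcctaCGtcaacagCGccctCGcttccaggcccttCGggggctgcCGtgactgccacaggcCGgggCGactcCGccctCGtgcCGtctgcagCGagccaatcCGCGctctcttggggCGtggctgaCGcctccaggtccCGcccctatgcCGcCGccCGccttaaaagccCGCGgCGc
Rgs19: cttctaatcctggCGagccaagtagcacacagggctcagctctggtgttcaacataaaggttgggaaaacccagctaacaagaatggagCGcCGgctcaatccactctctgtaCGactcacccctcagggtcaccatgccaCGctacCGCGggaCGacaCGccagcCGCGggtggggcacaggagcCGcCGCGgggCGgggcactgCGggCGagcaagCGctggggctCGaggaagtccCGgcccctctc
The Rgs2 stretch held 28 CG dinucleotides and 71.8% G or C, and that of Rgs19 held 20 and 64.8%. Rgs19 has 3 RefSeq start sites, and the window shown is the one at the annotated gene start. The other two windows of Rgs19 held 37 and 4 CG dinucleotides over their 300 bases, so that one lies above and one below the Rgs2 window. Over the full 300-base RefSeq window (250 before and 50 after the start), Rgs2 had 33 CG dinucleotides and 70.0% G or C, and the Rgs19 window shown 27 and 66.7%, against medians of 7 and 52.7% in 32851 promoters. RefSeq windows were matched for 6 of the 9 members (10 windows), with Rgs1, Rgs14 and Rgs18 unmatched. Both strands were searched for NF-κB (GGGA and TTCC with 2 bases between), AP-1 (TGANTCA), CRE (TGACGTCA), ISRE (GAAA repeated after 2 bases) and C/EBP (TTNNGCAA) letters, which 1.47%, 7.81%, 1.79%, 3.44% and 10.8% of all promoters hold. None of these letters were in the windows of Rgs2, Rgs10, Rgs16 or Rgs19, while 1 of 2 Rgs12 windows held the AP-1 letters and 1 of 2 Rgs3 windows the C/EBP letters.

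Rgs1 (ENSMUSG00000026358, chr1:144242296-144249242, minus strand), an activation-induced R4 member known to dampen chemokine receptor signaling in lymphocytes, was also lower in PGAM5 KD cells. It was at 4.94, 5.55 and 4.73 FPKM in control libraries and at 2.75, 2.27 and 2.41 FPKM in PGAM5 KD libraries, from 286 to 778 fragments. The groups did not overlap, and the PGAM5 KD mean was 48.8% of the control mean. The log2 fold change on log2(FPKM + 1) was -0.81 ± 0.09 (SE), and with a pseudocount of 0.1 it was -1.01, so that Rgs1 too passed the fold threshold. The annotated exons of Rgs1 merge into 1 block of 6947 bases that spans the whole gene, and its FPKM is per that length, which bears on its place in the order of levels but not on its fold change.

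Rgs3 (ENSMUSG00000059810, chr4:62559847-62704001, plus strand), the long R4 member with many isoforms, was at 1.53, 1.60 and 1.57 FPKM in control and at 1.71, 1.32 and 1.54 FPKM in PGAM5 KD libraries. The PGAM5 KD values lay on both sides of the control values. The log2 fold change on log2(FPKM + 1) was -0.03 ± 0.10 (SE), with a 95% interval of -0.27 to 0.21, so differences inside that range were not excluded. A stretch of 1410 bases of Rgs3 is 99.8% identical to Gm5763, and fragments from it could be split between both genes. Gm5763 itself reached at most 0.324 FPKM.

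Rgs16 (ENSMUSG00000026475, chr1:153740349-153745468, plus strand), an R4 member that leukocytes induce on activation, was under the level needed for the fit. It was at 0.353, 0.869 and 0.810 FPKM in control and at 0.233, 0.235 and 0.0876 FPKM in PGAM5 KD libraries. All PGAM5 KD libraries were lower than all control libraries, though control library 1 was near to them. The values rest on 15, 41 and 37 fragments against 12, 10 and 5. Pooled over libraries and scaled to depth, the ratio was 0.260, with an exact 95% interval of 0.163 to 0.403 that covers counting error only and not the spread between libraries. Part of its exons (236 bases) is shared with the antisense gene Gm28513, which reached at most 0.162 FPKM.

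Rgs18 (ENSMUSG00000026357, chr1:144752683-144775435, minus strand), best known from platelets and megakaryocytes, was near the detection limit. It was at 0.0813, 0 and 0 FPKM in control libraries and at 0.493, 0.108 and 0.202 FPKM in PGAM5 KD libraries. These are 3, 0 and 0 fragments against 22, 4 and 10, and a count of 0 allows up to 0.0732 and 0.0757 FPKM in control libraries 2 and 3. The pooled ratio was 10.8, with an exact 95% counting interval of 3.40 to 54.6, and PGAM5 KD library 1 held most of the fragments. On log2(FPKM + 1) the difference was 0.29, and 0.17 without that library. Of 5 megakaryocyte markers Gp9 and Ppbp were at 0 in all libraries, and the summed level of the 5 was 0.455 to 0.602 FPKM in control and 0.243 to 0.368 FPKM in PGAM5 KD libraries.

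Among the R12 members, Rgs10 (ENSMUSG00000030844, chr7:128373621-128418758, minus strand), abundant in macrophages and microglia, was at 13.9, 15.03 and 15.7 FPKM in control and at 13.8, 12.4 and 12.8 FPKM in PGAM5 KD libraries. The groups were separate only by the small gap between control library 1 and PGAM5 KD library 1. Its log2 fold change was -0.18 ± 0.06 (SE), with a 95% interval of -0.32 to -0.03, and did not pass the adjusted threshold over all genes. It passed after TPM scaling (-0.26), after quantile normalization (-0.21) and without control library 1 (-0.22).

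Rgs14 (ENSMUSG00000052087, chr13:55369732-55384687, plus strand) was the member that passed the adjusted threshold as higher in PGAM5 KD cells. It was at 2.09, 2.13 and 2.71 FPKM in control and at 3.86, 3.55 and 3.14 FPKM in PGAM5 KD libraries, from 161 to 360 fragments. The groups did not overlap, but the highest control library and the lowest PGAM5 KD library were close, and the ratio of the means was 1.52. On the log2 scale the difference was 0.45 ± 0.11 (SE). It no longer passed the adjusted threshold without control library 1 (0.40), control library 2 (0.41), PGAM5 KD library 1 (0.40) or PGAM5 KD library 2 (0.45), nor without a filter on low values or with a replicate block. Its transcripts resemble transcripts of 18 other genes over 200 to 222 bases (85% to 89.5% identity), of which the most abundant reached 431 FPKM. Whether fragments of those genes were counted for Rgs14 was not tested.

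Rgs12 (ENSMUSG00000029101, chr5:34949445-35039644, plus strand), the largest R12 protein, was all but silent. It was at 0.0389, 0.0234 and 0.0302 FPKM in control and at 0.0429, 0.0389 and 0.0918 FPKM in PGAM5 KD libraries. These are 6, 4 and 5 fragments against 8, 6 and 19, and control library 1 and PGAM5 KD library 2 had the same count. The pooled ratio was 1.97, with an exact 95% counting interval of 1.04 to 3.91, and PGAM5 KD library 3 alone held 19 of the 33 fragments. On log2(FPKM + 1) the difference was 0.04, and 0.01 without that library. Antisense gene Gm43791, which shares 467 bases with its exons, was at 0 FPKM.

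Rgs19 (ENSMUSG00000002458, chr2:181688419-181693977, minus strand), the RZ member, was at 40.5, 36.5 and 40.2 FPKM in control and at 40.8, 37.3 and 41.0 FPKM in PGAM5 KD libraries. The libraries of the 2 groups were interleaved. Its log2 fold change was 0.02 ± 0.06 (SE), with a 95% interval of -0.11 to 0.16, and its sign turned under TPM scaling (-0.06). This interval was narrower than that of Rgs3, the other member whose interval includes 0.

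The other RGS genes added little. The files list 15 more genes with an RGS symbol, of which 9 were at 0 in all 6 libraries. Of the numbered family these were Rgs4, Rgs6, Rgs7, Rgs13, Rgs17, Rgs21 and Rgs22, for which a count of 0 allows 0.0123 to 0.0998 FPKM depending on gene and library. Rgs11, an R7 member that works together with Gβ5, was the only one above 1 FPKM on average. It was at 2.15, 2.38 and 3.43 FPKM in control and at 2.03, 2.42 and 2.15 FPKM in PGAM5 KD libraries, with a log2 fold change of -0.18 ± 0.14 (SE, limma, adjusted p = 0.381). Without control library 3, the highest, it was -0.03. Rgs11 shares 138 exon bases with Arhgdig on the opposite strand, whose mean was 2.64 FPKM in control and 4.16 in PGAM5 KD cells, and fragments of both could be mixed if strand was not used in counting. Rgs20, the RZ relative of Rgs19, was at 0.0483 to 0.257 FPKM in control and 0.104 to 0.251 in PGAM5 KD libraries.

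Summed over the 21 numbered RGS genes, control libraries held 78.8, 79.2 and 82.6 FPKM and PGAM5 KD libraries 69.1, 63.6 and 67.8 FPKM. The groups did not overlap, with means of 80.2 ± 2.12 and 66.8 ± 2.90 FPKM (SD, n = 3). The 9 members made up 95.7% to 97.1% of this sum. Rgs2 accounted for 17.1% ± 1.27 of it in control and 5.33% ± 0.715 in PGAM5 KD cells, and Rgs1 for 6.34% ± 0.648 and 3.70% ± 0.242. The share of Rgs19 was 48.8% ± 2.65 in control and 59.4% ± 0.986 in PGAM5 KD cells at nearly the same FPKM, and the share of Rgs14 was 2.87% ± 0.350 and 5.27% ± 0.545. Rgs10 held 18.5% ± 0.800 and 19.5% ± 0.522. These sums contain the differences that chose the members and are a description of the transcript pool, not of protein or activity.

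**Figure D3:**
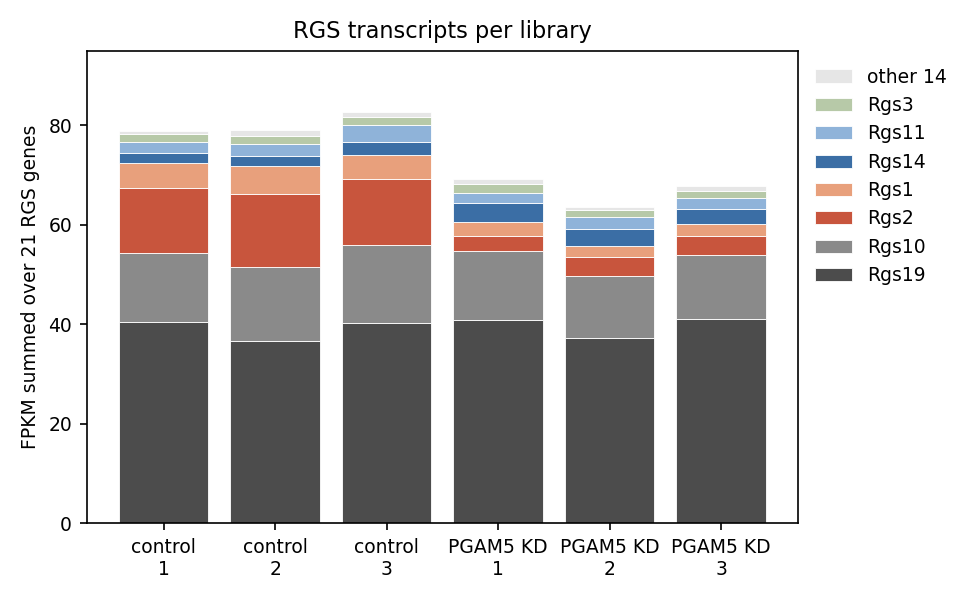
FPKM summed over the 21 numbered RGS genes in each of the 6 libraries, stacked by gene, with the 14 genes of lowest level pooled. Each bar starts at 0. Totals are 78.8 to 82.6 FPKM in control and 63.6 to 69.1 FPKM in PGAM5 KD libraries, and the Rgs2 segment (red) shrinks from 13.1 to 14.7 FPKM to 3.12 to 3.79 FPKM while that of Rgs19 stays between 36.5 and 41.0 FPKM.

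The R4 members Rgs2, Rgs1 and Rgs18 sit with Rgs13 and Rgs21 in a cluster of 776 kb on chromosome 1. The start sites of Rgs1 and Rgs18 are 245 and 771 kb from that of Rgs2. Rgs13 and Rgs21, between the outer members, were at 0 in all libraries, while Rgs2 and Rgs1 were lower and the few Rgs18 fragments more numerous in PGAM5 KD cells. Outside the RGS genes, 4 protein-coding genes within 1 Mb of the cluster entered the fit and 1 of them passed the adjusted threshold, a share near the 31.7% of all genes. This was Trove2, which encodes the RNA-binding protein Ro60, at 5.33 ± 0.227 (SD, n = 3) in control and 4.23 ± 0.105 FPKM in knockdown cells (log2 fold change -0.27 ± 0.06, SE, limma, adjusted p = 0.0138). Uchl5, a deubiquitinase of the proteasome that starts beside Trove2, had a log2 fold change of 0.19 ± 0.06 (limma, adjusted p = 0.0501), with Cdc73 at -0.06 and Glrx2 at 0.12.

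**Figure D4:**
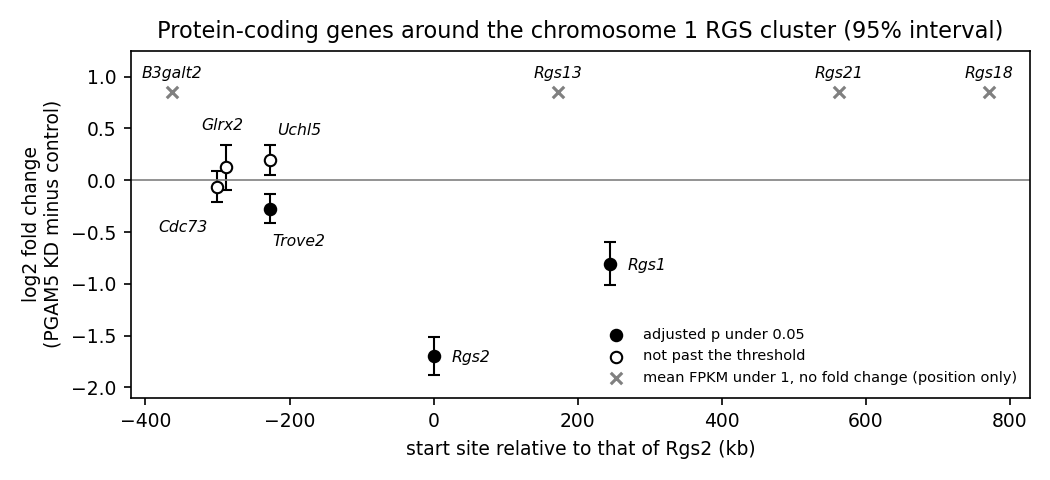
Log2 fold change, PGAM5 KD minus control on log2(FPKM + 1), of the protein-coding genes within 1 Mb of the chromosome 1 RGS cluster, against the distance of their start site from that of Rgs2 in kb. Whiskers are 95% intervals, filled points passed an adjusted p of 0.05, and crosses only mark the position of 4 genes with a mean under 1 FPKM. Rgs2 (-1.70) and Rgs1 (-0.81) lie below the other 4 genes with a fold change (-0.27 to 0.19).

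The genes whose profile over the 6 libraries was most like that of Rgs2, by Pearson correlation on log2(FPKM + 1) among genes with a mean of at least 1 FPKM, were Rasgrp3 (r = 0.9996), Sgpl1 (r = 0.9985) and mt-Nd4 (r = 0.9982). All 3 share the 2 levels of control and PGAM5 KD libraries with Rgs2, which the 6 points mostly reflect, and their own log2 fold changes were smaller at -0.42, -0.39 and -0.71.

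The partners of the RGS proteins in the pathway were described from lists of 150 other genes found in the files, 72 of them with a mean of at least 1 FPKM. Of these 28 passed the adjusted threshold (38.9%, against 31.7% of all genes), 16 higher and 12 lower, with a median log2 fold change of 0.08. After TPM scaling 12 were higher and 14 lower. Among the Gα genes, 3 of 8 passed (37.5%, beside 31.7% of all genes). Gna13, which couples receptors to the actin cytoskeleton, fell from 30.8 ± 0.825 to 22.1 ± 0.927 FPKM (log2 fold change -0.46 ± 0.04, limma, adjusted p = 0.00044). Gnaq, encoding the Gαq subunit that Rgs2 prefers, fell from 21.9 ± 1.36 to 17.2 ± 0.551 FPKM (-0.33 ± 0.06, limma, adjusted p = 0.00477). Gnai2, the main inhibitory subunit of leukocytes, was 0.14 higher on the log2 scale (limma, adjusted p = 0.00883), a call that was lost under TPM scaling and quantile normalization.

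Of 8 Gβ and Gγ genes 3 rose and 1 fell. Gng4 fell from 4.92 ± 0.293 to 1.47 ± 0.326 FPKM (log2 fold change -1.27 ± 0.11, limma, adjusted p = 0.000323), while Gng2 rose from 5.04 ± 0.555 to 8.54 ± 0.0584 FPKM (0.66 ± 0.07, limma, adjusted p = 0.000864). Gngt2 (0.52) and the more abundant Gnb1 (0.19) rose as well, with limma adjusted p of 0.0169 and 0.00335, the former not without PGAM5 KD library 2 or without a filter on low values. Of 11 other genes with an RGS homology domain, 2 passed the threshold (18.2%, beside 31.7% of all genes). The receptor kinase Grk2 rose by 0.18 (limma, adjusted p = 0.00944, lost under TPM scaling and quantile normalization). The guanine nucleotide exchange factor Arhgef12 fell by 0.19 (limma, adjusted p = 0.0482), a call lost under 11 of 15 alternatives, including each in which a library was left out.

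Of 9 other regulators of G proteins, 4 rose and none fell past the threshold, where 16.8% of all genes rose and 14.9% fell, a split that TPM scaling turned as given above. The list as a whole was not tested. They were Gpsm3, a GoLoco protein of leukocytes (0.52, limma adjusted p = 0.0264), Gipc1, the PDZ protein that binds Rgs19 (0.44, 0.0149), the β-arrestin gene Arrb2 (0.40, 0.000516) and Ric8a, a chaperone and exchange factor for Gα (0.33, 0.00771). Gpsm3 lost its call without control library 3 (0.38), PGAM5 KD library 2 (0.51) or PGAM5 KD library 3 (0.44), without a filter on low values and with a replicate block, and Gipc1 without PGAM5 KD library 3 (0.42). Gpsm3 shares 227 exon bases with Pbx2 and Ric8a 390 with Bet1l and 418 with Sirt3, so their values could hold fragments of those genes.

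Of 16 effector genes 3 rose and 5 fell. The largest were the adenylyl cyclase gene Adcy9 (-0.53 ± 0.11, limma, adjusted p = 0.0121), the phospholipase C gene Plcb3, a target of Gαq (0.46 ± 0.07, limma, adjusted p = 0.00405), Adcy7 (-0.37 ± 0.05, limma, adjusted p = 0.00174) and Pik3r5, the adaptor of the Gβγ-driven PI3-kinase (-0.36 ± 0.04, limma, adjusted p = 0.00121). Plcb3 shares 22 exon bases with the abundant Ppp1r14b, whose mean was 304 FPKM in control and 352 in PGAM5 KD cells. Of 53 receptor genes 19 were in the fit, with 4 higher and 3 lower past the threshold (36.8%, beside 31.7% of all genes). Ptafr, the receptor for platelet-activating factor, fell from 7.40 ± 0.170 to 2.66 ± 0.373 FPKM (-1.20 ± 0.08, limma, adjusted p = 0.000121), and Gpr183, the oxysterol receptor EBI2, from 12.5 ± 0.958 to 5.32 ± 0.488 FPKM (-1.10 ± 0.08, limma, adjusted p = 0.000138). The proton sensor Gpr65 rose from 2.82 ± 0.510 to 6.37 ± 0.131 FPKM (0.96 ± 0.10, limma, adjusted p = 0.000744).

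**Figure D5:**
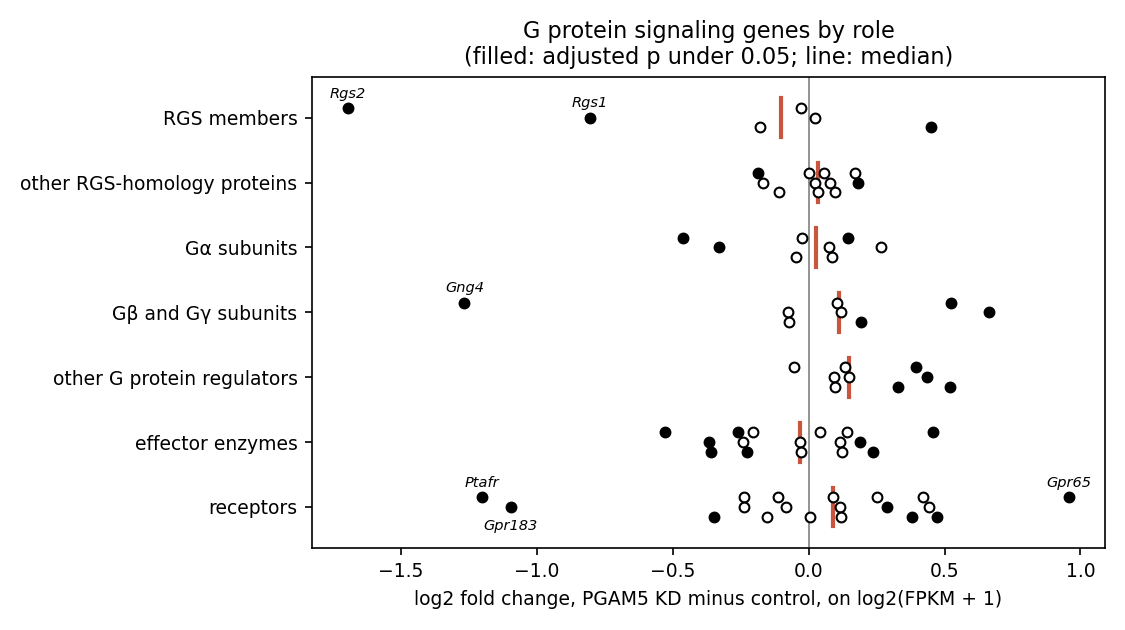
Log2 fold change, PGAM5 KD minus control on log2(FPKM + 1), of genes with a mean of at least 1 FPKM, by role in G protein signaling. Each point is 1 gene, filled where it passed an adjusted p of 0.05 over all 10540 genes, and the red line is the median of the list. Rgs2 (-1.70) lies farthest from 0, followed by Gng4 (-1.27), Ptafr (-1.20) and Gpr183 (-1.10), and the medians of the 7 lists drawn lie between -0.10 and 0.15. Rgs11 (-0.18) is not drawn.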

How the data were processed

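RNA was isolated with a column kit, and poly(A) RNA was sequenced in 6 libraries, 3 per group, whose groups came from the sample titles. The authors deposited 1 table of FPKM per library. Per the submitters' processing notes HISAT2 2.0.5 and featureCounts 1.5.0-p3 were used with mm10, without their settings. The labels do not say whether counting used strand. Gene names, exons and positions were taken from GENCODE M21 (54495 of 54532 identifiers matched). Values were tested as log2(FPKM + 1) with limma 3.58.1 in R 4.3.3 (mean-variance trend, no covariate) on genes whose mean FPKM was 1 or more, with Benjamini-Hochberg adjustment over 10540 genes. Tests are two-sided. A fold change on log2(FPKM + 1) understates the change of low genes. Whole fragments were recovered from FPKM times exon length (96.8% to 97.1% of values under 1000 fragments within 0.01 of a whole number), so that 1 fragment per kilobase of exon equals 0.041 to 0.0551 FPKM. Count ratios with exact binomial intervals, and the limits allowed by a count of 0 (3 fragments), cover counting error only. Transcripts of members were compared with blastn 2.17.0 (at least 85% identity over 200 bases).

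The members, gene lists and tests were chosen with earlier results of these data known. Named beside the members were Pgam5, at most 4 genes per pathway list past the threshold by size of fold change, other RGS genes with a mean of at least 0.1 FPKM, the 3 genes most like Rgs2, tested genes within 1 Mb of the chromosome 1 cluster and genes overlapping a member. A single gene this rule names is not reported here. The genes overlapping pathway genes or Pgam5 were picked after their values were seen. Alternatives were another pseudocount (0.1), other filters (none, mean FPKM of at least 5), TPM scaling, quantile and median normalization, no mean-variance trend, a replicate block, each library left out, and voom on the recovered fragments.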

Additional observations from a re-analysis of the deposited data

How the results depend on the processing

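The members were chosen on this contrast, so their counts under refits of the same 6 libraries describe the settings and support nothing. Of the members, 3 passed the adjusted threshold, and 1 with a mean FPKM of at least 5, where only Rgs2, Rgs10 and Rgs19 were fitted. The number was 2 to 3 when a library was left out and 2 without a filter on low values. It was 4 after TPM scaling or quantile normalization, where Rgs10 was added. Over all genes 3346 passed the adjusted threshold, and 2771 with a mean FPKM of at least 5. The range was 2340 to 2858 with a library left out, beside 2590 without a filter, 3370 after TPM scaling and 3157 after quantile normalization. Both thresholds were passed by 1 member (1 to 1 with a library left out), and by 2 with a pseudocount of 0.1, TPM scaling or voom, where Rgs1 was added at -1.01, -1.02 and -1.04. Of all genes 139 passed both, 261 with a pseudocount of 0.1, 76 with a mean FPKM of at least 5, 233 after TPM scaling and 274 with voom. The sign of Rgs19 turned under TPM scaling (-0.0553), quantile normalization (-0.0221), without control replicate 2 (-0.0244) and without PGAM5 KD replicate 3 (-0.000943), and that of Rgs3 without PGAM5 KD replicate 2 (0.0302). With a library left out Rgs3 ranged from -0.0835 to 0.0302 and Rgs19 from -0.0244 to 0.0658, Rgs11 from -0.28 to -0.03, Rgs12 from 0.01 to 0.05, Rgs16 from -0.64 to -0.40 and Rgs18 from 0.17 to 0.38. The differences of the members under 1 FPKM depended on the pseudocount and scale. At a pseudocount of 0.1 and under TPM scaling they were 0.26 and 0.10 for Rgs12 (0.04 on log2(FPKM + 1)), -1.42 and -0.9997 for Rgs16 (-0.49), and 1.45 and 0.71 for Rgs18 (0.29). Of 310 alternative values of 21 named pathway genes, 287 kept direction and call, 23 lost the call and 0 reversed. These genes were named for passing the threshold in the same 6 libraries, so this tally too describes the settings and supports nothing. Same-numbered replicates did not deviate together (r = -0.0197, 0.0161 and -0.0516, and 0 of 6 libraries correlated best with their own number), so the numbers were not taken to pair samples. With a replicate block 2 members, 26 pathway genes, 2652 genes in all and 147 past both thresholds were found. Depth limits Rgs12, Rgs16 and Rgs18, whose libraries held 0 to 41 fragments, and gene-level FPKM cannot show isoforms.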
